A study of Mus musculus with 2 samples.

Results

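The genes described here are the 8 mouse genes of a pair of transcription factor families, the nuclear factor I family (Nfia, Nfib, Nfic and Nfix) and the early B cell factor family (Ebf1, Ebf2, Ebf3 and Ebf4). They are 8 of 21631 protein-coding genes, and the Suz12 peaks that overlapped their bodies or lay within 2.5 kb of them number 17 of 3373. The peaks come from 1 chromatin immunoprecipitation library of wild-type E14 cells, an embryonic stem cell line of the mouse, made with an antibody against Suz12. For 72 h these cells had grown in serum with 1 µM all-trans-retinoic acid, renewed every 24 h, after removal of leukemia inhibitory factor (LIF), which otherwise keeps them undifferentiated. A Suz12 knockout library (Suz12-/-, serum, 0 h) was not analysed here. The 17 peaks were chosen by their position at these genes, so that the genes carry peaks is a description. With 1 library there is no replicate error and no test.

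Suz12 belongs to the core of Polycomb Repressive Complex 2 (PRC2), which methylates histone H3 at genes kept silent and in mammals binds mainly at CpG islands, stretches of DNA rich in the CG dinucleotide. The Nfi proteins bind DNA as dimers at the sequence TTGGC and its reverse complement. In mice, Nfia drives the onset of gliogenesis, Nfib is needed for maturation of lung and forebrain, Nfic for growth of tooth roots, and Nfix for the fetal programme of muscle and for neural stem cells. The Ebf proteins are helix-loop-helix factors with a zinc-coordinating DNA-binding domain. Ebf1 specifies B lymphocytes, Ebf2 acts in brown fat and in migrating neurons, Ebf3 acts in neurons, and Ebf4 is the least studied of the family.

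A RefSeq table of promoters on GRCm38.p6 lists 10 starts for 6 of the genes, with none for Nfib and Ebf2, and 8 of the 10 lay under a Suz12 peak. Of all 21045 starts listed for protein-coding genes, 1687 (8.02%) did. Starts of the same gene are not independent: of the 8, 4 belong to Nfix, 3 of these under 1 peak, and 2 to Ebf1. By gene, 4 of the 6 with a listed start had one under a peak. Over all protein-coding genes this share was read by start and not by gene, so the count by gene has no background here. The 250 bases before 5 of the 10 starts are shown. They pair a start under a peak with one outside peaks at both extremes of CpG content, with Nfic between them. Each runs 5′ to 3′ on the strand of the gene, and capitals mark every CG dinucleotide. Ebf3 (chr7:137314446-137314695, minus strand) and Ebf4 (chr2:130295689-130295938, plus strand) are both rich in CG, and of these only the start of Ebf3 lay under a peak. Nfia (chr4:97581693-97581942, plus strand) and the start of Nfix with fewest CG (chr8:84772876-84773125, minus strand) are both poor in CG. Of these only the start of Nfix lay under a peak. Both lie inside the gene, whose outer upstream end is at 97578066 for Nfia and at 84801238 for Nfix. The CG content at those outer ends was not read. The start of Nfic (chr10:81427174-81427423, minus strand) lay under one as well.
Ebf3: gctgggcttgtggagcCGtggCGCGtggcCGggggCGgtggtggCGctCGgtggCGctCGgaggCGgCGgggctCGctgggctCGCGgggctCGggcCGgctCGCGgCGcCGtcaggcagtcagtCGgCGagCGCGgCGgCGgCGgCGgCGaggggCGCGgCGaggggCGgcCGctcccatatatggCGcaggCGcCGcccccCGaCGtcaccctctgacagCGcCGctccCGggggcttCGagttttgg
Ebf4: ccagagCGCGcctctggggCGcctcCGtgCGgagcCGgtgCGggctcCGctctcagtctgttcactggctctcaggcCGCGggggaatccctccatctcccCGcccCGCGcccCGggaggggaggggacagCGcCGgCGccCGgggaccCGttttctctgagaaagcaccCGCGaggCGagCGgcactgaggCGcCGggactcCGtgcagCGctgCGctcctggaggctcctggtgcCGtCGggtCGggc
Nfix: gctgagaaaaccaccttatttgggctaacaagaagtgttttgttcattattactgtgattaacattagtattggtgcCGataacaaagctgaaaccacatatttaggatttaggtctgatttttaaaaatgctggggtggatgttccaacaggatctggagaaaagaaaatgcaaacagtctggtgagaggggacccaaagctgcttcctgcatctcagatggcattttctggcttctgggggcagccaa
Nfia: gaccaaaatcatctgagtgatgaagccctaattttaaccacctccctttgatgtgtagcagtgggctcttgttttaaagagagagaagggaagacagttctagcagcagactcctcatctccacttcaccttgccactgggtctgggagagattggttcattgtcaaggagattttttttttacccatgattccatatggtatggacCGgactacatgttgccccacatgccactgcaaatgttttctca
Nfic: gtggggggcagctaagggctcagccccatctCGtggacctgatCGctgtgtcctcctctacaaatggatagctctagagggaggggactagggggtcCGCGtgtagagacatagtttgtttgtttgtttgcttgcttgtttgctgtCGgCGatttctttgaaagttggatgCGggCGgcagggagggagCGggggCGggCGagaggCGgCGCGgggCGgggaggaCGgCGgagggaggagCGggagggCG

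In these 250 bases CG occurred 43 times at Ebf3 and 31 times at Ebf4, against 1 time each at Nfix and Nfia and 19 times at Nfic. Over the whole 300 bases of the table, which add 50 bases after the start, the count was 46 for Ebf3 and 35 for Ebf4. Of all listed starts, 97.9% had fewer CG than that of Ebf3 and 90.8% fewer than that of Ebf4. The GC content was 77.0% for Ebf3 and 74.3% for Ebf4, against 44.7% for Nfia. The nearest peak lay 65.4 kb from the start of Ebf4. Of the 3283 listed starts with 30 or more CG in 300 bases, 474 (14.4%) lay under a peak, and the start of Ebf4 is among the majority that did not.

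The 4 starts listed for Nfix held 2, 9, 4 and 13 CG in 300 bases, read from the lowest coordinate up, and all 4 lay under peaks. Among starts with 0 to 4 CG, 43 of 5838 (0.737%) lay under a peak, and a pair of the Nfix starts are among these 43. Both sit under the same peak of 6103 bp, which reaches well beyond the 300 bases searched, so their own sequence does not describe all of the DNA under it. The starts of Ebf1 held 9 and 17 CG, and that of Nfic held 24. The share under a peak was 5.02% for starts with 5 to 9 CG, 11.0% for 10 to 19 and 12.0% for 20 to 29. Across all genes the median was 22 CG for starts under a peak and 12 for the others. Of the 10 listed starts, only those of Ebf4 (35 CG) and Nfia (2 CG) lay outside peaks. With so few, whether CG count goes with coverage among the members was not tested.

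**Figure D1:**
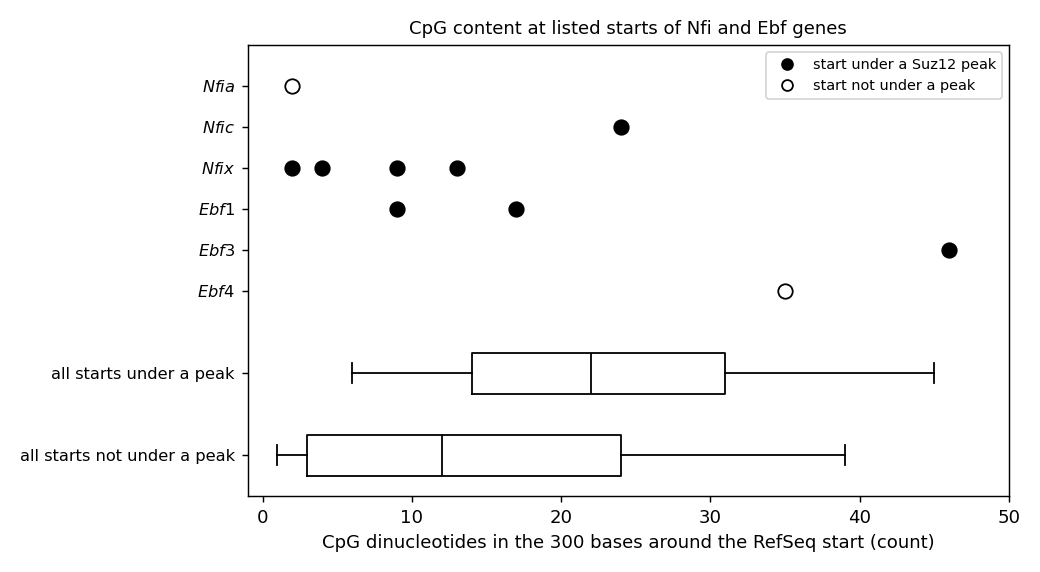
CpG dinucleotides in the 300 bases around each RefSeq start listed for Nfi and Ebf genes (circles, 1 per start, filled where the start lies under a Suz12 peak), above boxes for all listed starts of protein-coding genes. Boxes give the median and quartiles and whiskers the 5th and 95th percentiles; the start of Ebf4, with 35 CpG, is open and lies above the median of 22 for covered starts, while all 4 starts of Nfix are filled and lie below it.

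The 8 genes differed widely in how much Suz12 they held. Nfix had 6 peaks, Ebf1 had 3, Nfia and Ebf2 had 2 each, and Nfib, Nfic, Ebf3 and Ebf4 had 1 each. The background is low, since 2833 of 21631 protein-coding genes (13.1%) had any peak by the same rule, 475 (2.2%) had 2 or more, 133 (0.615%) had 3 or more and 7 (0.0324%) had 6 or more. Long genes more often hold a peak, and the members are long, with a median of 163 kb. The share with a peak was 10.5% for genes up to 50 kb, the bin of Nfic, and 14.7% for 50 to 100 kb, the bin of Nfix and Ebf4. It was 22.9% for 100 to 200 kb, the bin of Ebf2 and Ebf3, 31.7% for 200 to 400 kb, the bin of Nfib and Ebf1, and 52.0% above 400 kb, the bin of Nfia. The share with an interior peak was also higher in each longer bin, at 1.23%, 3.42%, 6.05%, 7.05% and 17.0%.

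By place, 10 of the 17 peaks lay within 2.5 kb of an outer end of a gene and 7 lay in the interior. The Nfi genes held 4 peaks at ends and 6 in the interior, and the Ebf genes held 6 at ends and 1 in the interior. Interior peaks were 41.2% of member peaks, against 18.9% of all pairings of a peak with a protein-coding gene, 33.3% of peaks at Pax genes and 45.5% of peaks at Gata genes. Nfia, Nfic and Ebf4 had interior peaks only. This holds for 293 of the 21631 genes (1.35%) and for 10.3% of the 2833 genes with a peak. By length, the share of genes with interior peaks only was 0.695% in the bin of Nfic, 1.87% in that of Ebf4 and 11.4% in that of Nfia. Nfib, Ebf1, Ebf2 and Ebf3 had peaks at an end only, and Nfix had both kinds, as did 190 genes (0.878%). With 3 interior peaks Nfix was among 39 genes (0.18%) that had 3 or more. The outer ends are those of the longest RefSeq gene model, and a peak counted as interior can still lie at a start of a shorter transcript: 3 of the 7 interior peaks covered a listed start of their gene, against 148 of 429 interior peaks (34.5%) over all genes with a listed start.

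**Figure D2:**
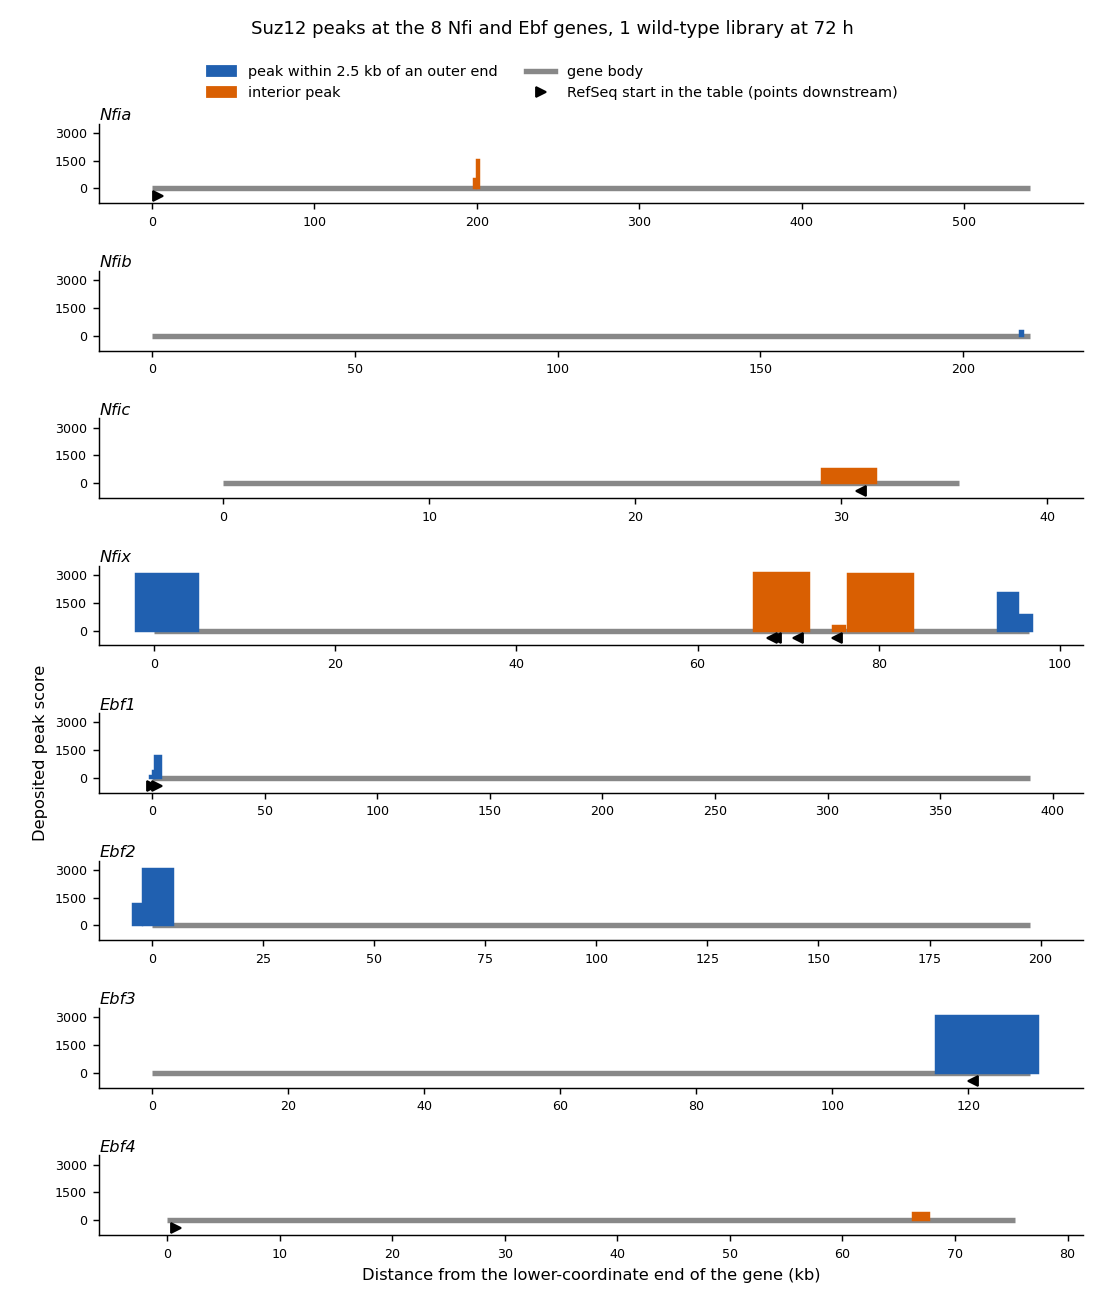
Suz12 peaks along each Nfi and Ebf gene, with distance from the lower-coordinate end of the gene in kb on the x axis (each gene on its own scale) and the deposited peak score, which has no stated scale, as the height of each box. Blue boxes are peaks within 2.5 kb of an outer end, orange boxes are interior peaks, and triangles are listed RefSeq starts pointing downstream; Nfix carries 6 peaks, and Nfia, Nfic and Ebf4 carry orange boxes only.

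Nfix, the factor of fetal muscle and neural stem cells, lies on chromosome 8 from 84704712 to 84801238 on the minus strand, so it is read from the higher coordinate down. Its peaks, from the lowest coordinate up, had widths of 6971, 6103, 1473, 7255, 2384 and 1354 bp. Their deposited scores were 3100, 3179, 313, 3100, 2067 and 901, on the authors' scale, where the median of all 3373 peaks was 572. The score piles up at 3100, shared by 325 peaks, so values of 3100 and above cannot be ranked against each other. All 3 of its peaks wider than 5 kb scored at least 3100, and the 3 narrower ones scored below it.

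The 3 interior peaks of Nfix formed a run from 84770865 to 84788437, with gaps of 2559 and 183 bp, which joins into a domain of 17573 bp when peaks within 3 kb are merged. The lowest-coordinate peak of this run, from 84770865 to 84776967, covered 3 listed starts at 84772875, 84773410 and 84775828. The middle peak, from 84779527 to 84780999, covered the start at 84780082, and it was the weakest of the 6. The widest, from 84781183 to 84788437, lay 1101 bp before that start and covered none. At the higher-coordinate end, where the table lists no start, peaks of 2384 and 1354 bp stood 94 bp apart and reached 84801574, a little beyond the gene.

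The remaining Nfix peak, from 84702595 to 84709565, lay at the far end of the gene and scored 3100. It also covered 2122 bp of Lyl1, a helix-loop-helix factor of blood cells, whose body (to 84704716) overlaps the edge of Nfix (from 84704712). The listed start of Lyl1, at 84701457, was not under it but 1138 bp away. Which of the neighbours the peak belongs to cannot be told from its position.

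Together the peaks covered 23087 bp of the body of Nfix, which is 23.9% of its length and the most bases of any protein-coding gene. The next were Gm37013, a gene model that spans the clustered protocadherins, with 19205 bp, and Pax2, an eye and kidney regulator, with 18872 bp. Without the peak shared with Lyl1, Nfix had 18233 bp and stood in place 3. Among the other genes with 6 or more peaks were Zic4 with 7, Tbx5 with 6, and 3 overlapping protocadherin gene models, of which Gm37013 had 12. By share of length Nfix stood in place 636 of 2833, since short genes are often covered whole.

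Nfia, the factor of gliogenesis, lies on chromosome 4 from 97578066 to 98118876 on the plus strand and is the longest of the 8 genes at 541 kb. Its peaks, from 97775701 to 97777563 and from 97777582 to 97779457, were 18 bp apart and scored 543 and 1586. Both lay deep in the gene, at least 197635 bp from its nearer outer end and 194 kb or more from its listed start, which had no peak. Only 1 start is listed for Nfia and the list of starts is not complete, so whether these peaks lie at another start was not read. The lower-coordinate peak overlapped the higher-coordinate end of Gm38709, a long non-coding RNA gene from 97750647 to 97777423 whose strand is not listed. They covered 3739 bp, or 0.691% of the gene. In the bin of genes above 400 kb, 60 of 352 (17.0%) had an interior peak.

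Nfib, needed in lung and forebrain, lies on the same chromosome from 82290173 to 82506751. It had a single narrow peak of 960 bp, from 82504019 to 82504978, with a score of 302. This was the weakest best peak of any member, with 5.66% of all peaks narrower, and it lay inside the gene, 1773 bp from the higher-coordinate end. It covered 0.443% of the gene, the lowest share of the 8. The body of Nfib thus held 960 bp under peaks, against a median of 1627 bp for genes of 200 to 400 kb with a peak.

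Nfic, the tooth root factor, lies on chromosome 10 from 81396191 to 81431919 on the minus strand and is the shortest of the 8 at 35.7 kb. Its peak, from 81425188 to 81427900, was 2713 bp wide with a score of 805. It covered the listed start at 81427173 and lay 4019 bp from the outer end, so it counted as interior although it sits at a start of the gene. It took up 7.59% of the gene. Among the Nfi genes the best scores were thus 1586 for Nfia, 302 for Nfib, 805 for Nfic and 3179 for Nfix.

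The Ebf genes Ebf1, Ebf2 and Ebf3 shared a layout, with every peak gathered at 1 outer end and none in the interior. Nfib, with its single peak, had this layout too, and of the 2833 genes with a peak 483 had an interior one. Ebf1, the B lymphocyte factor, lies on chromosome 11 from 44618100 to 45008096 on the plus strand. Its peaks were 852, 902 and 3227 bp wide, with scores of 172, 441 and 1216 from upstream to downstream. The most upstream one ended 721 bp before the gene, the next covered the outermost start at 44618100, and the third covered the start at 44620228. Beyond them, 4104 bp from the gene and outside the limit of 2.5 kb, lay another peak of 3093 bp with a score of 913. Merged within 3 kb, the 4 peaks form a domain of 11177 bp around the start.

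Ebf2, of brown fat and migrating neurons, lies on chromosome 14 from 67233292 to 67430952. Its peak from 67231087 to 67237942 was 6856 bp wide, scored 3100 and covered the lower-coordinate end. It also covered Gm20675, a long non-coding RNA gene of 67232416 to 67233195. A further peak from 67228769 to 67231080, with a score of 1204, stood 6 bp beside it and 2212 bp from the gene, the farthest peak that the limit of 2.5 kb admitted. The promoter table lists no start for Ebf2, so which end is its start was not read from it.

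Ebf3, the neuronal factor, lies on chromosome 7 from 137193671 to 137322805 on the minus strand. Its single peak, from 137308841 to 137323931, was 15091 bp wide with a score of 3100, and 10 of all 3373 peaks were wider. It reached 1126 bp beyond the outer end, ran through the listed start at 137314445 and continued into the gene. The 13965 bp that it covered were 10.8% of the gene, place 10 of 2833 by bases. By its midpoint this peak would count as interior, because it extends so far into the gene.

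Ebf4 differed from its paralogues. It lies on chromosome 2 from 130295126 to 130370482 on the plus strand, and its only peak, from 130361298 to 130362852, was 1555 bp wide with a score of 432. This peak lay in the interior, 65.4 kb downstream of the listed start and 7630 bp from the far end. It covered 2.06% of the gene, against 1.02% in Ebf1, 2.35% in Ebf2 and 10.8% in Ebf3. The best scores of the Ebf genes were 1216 for Ebf1, 3100 for Ebf2 and Ebf3, and 432 for Ebf4, whose score was below the median of all peaks.

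**Figure D3:**
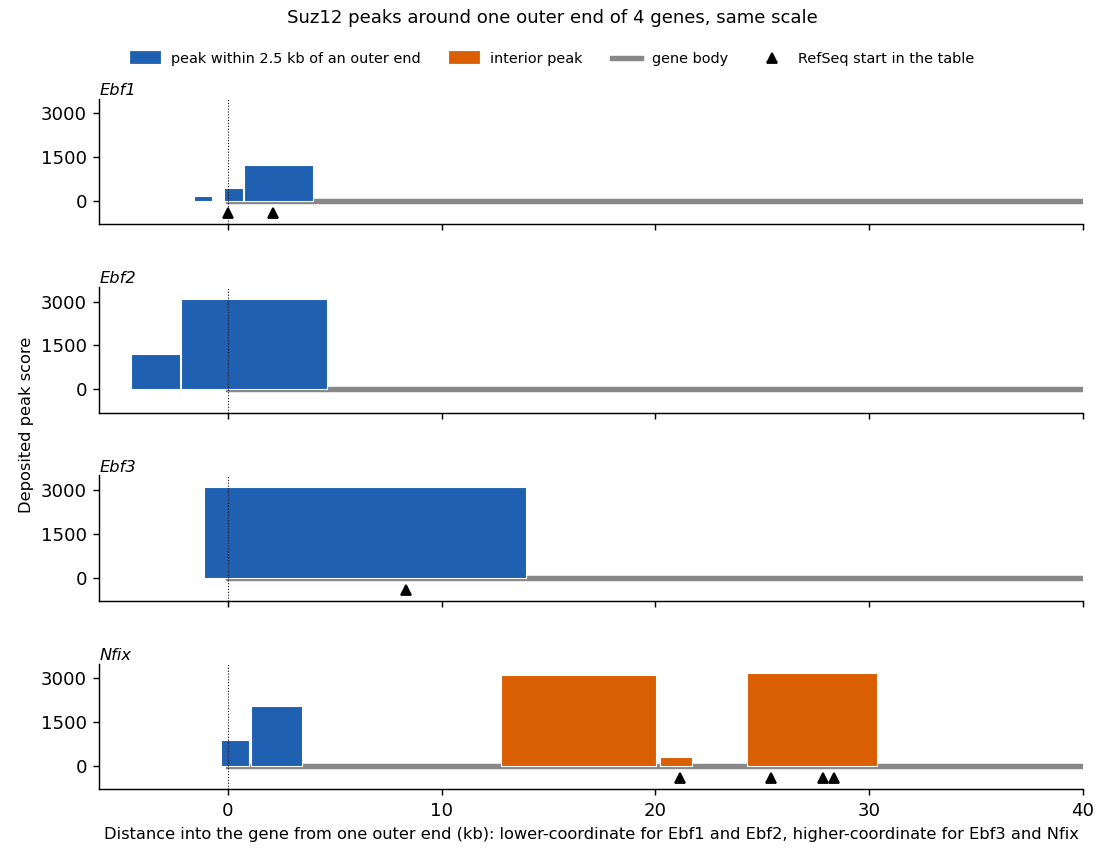
Suz12 peaks around 1 outer end of Ebf1, Ebf2, Ebf3 and Nfix on the same scale, with distance into the gene in kb on the x axis (0 is the outer end) and the deposited score as box height. Blue boxes are peaks within 2.5 kb of the outer end, orange boxes are interior peaks and triangles are listed RefSeq starts; Ebf3 has 1 unbroken peak of 15091 bp, Ebf1 and Ebf2 have adjoining narrower ones, and Nfix has separate groups at the end and in the interior.

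The covered lengths order the genes as Nfix (23087 bp), Ebf3 (13965 bp), Ebf2 (4651 bp), Ebf1 (3963 bp), Nfia (3739 bp), Nfic (2713 bp), Ebf4 (1555 bp) and Nfib (960 bp). Over all genes with a peak the median was 1588 bp. Ebf2, Ebf1 and Nfia lie close together, and without replicates their order cannot be set against an error. The share of genes with more than 10 kb under peaks was 25 of 21631 (0.116%), and Nfix and Ebf3 are among the 25. Of the 17 member peaks, 5 (3 at Nfix, 1 at Ebf2 and 1 at Ebf3) were wider than 5 kb, as were 223 of all 3373 peaks (6.61%), and the same 5 scored at least 3100, as did 10.5% of all peaks.

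**Figure D4:**
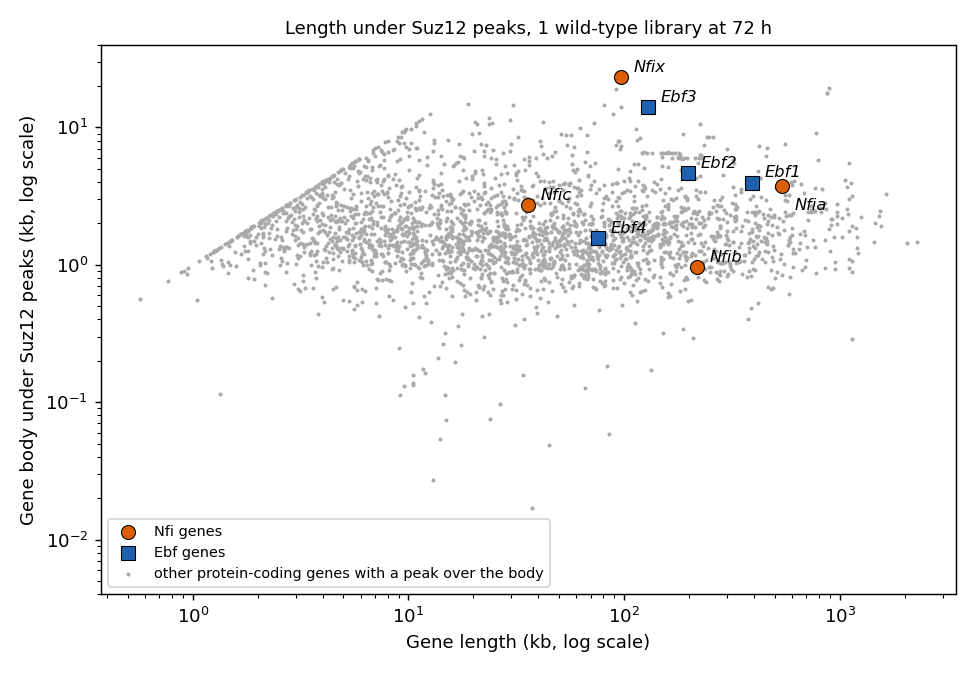
Length of the gene body under Suz12 peaks against gene length, both in kb on log scales, for Nfi genes (orange circles), Ebf genes (blue squares) and the other protein-coding genes with a peak over the body (grey dots). Nfix, at 23.1 kb, stands above all other genes, Ebf3 lies near the top, and Ebf4 and Nfib lie within the bulk of the dots.

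Other families of developmental paralogues gave a comparison for the place of the peaks. Of the 9 Pax genes, which pattern eye, kidney and spinal cord, 8 had a peak at an end, and of the 6 Gata genes, regulators of blood, heart and gut, 5 had one. Interior peaks only were found at 3 of the 8 Nfi and Ebf genes and at none of the Pax or Gata genes. This class depends on the outer ends of the gene model, and the interior peak of Nfic covered a listed start 4019 bp or more from its outer end. The share of peaks that were interior was 41.2% for the Nfi and Ebf genes (7 of 17), 33.3% for the Pax genes (7 of 21) and 45.5% for the Gata genes (5 of 11), with the Nfi and Ebf genes between the other families. The members are longer, with a median of 163 kb against 55.0 kb for Pax and 24.1 kb for Gata genes, and peaks covered a median of 2.21% of their length against 14.6% and 12.7%. By bases the medians were 3851 bp for the Nfi and Ebf genes, 8060 bp for the Pax genes and 3284 bp for the Gata genes. These differences between families were not tested, and the Pax and Gata genes were chosen after their values were seen.

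The partner and target genes of the factors were read from 6 lists, written from textbook knowledge with earlier results of these data known. They hold 53 genes in all. Of these, 22 (41.5%) had a peak, all 22 at an end, against 11.7% of all protein-coding genes with a peak at an end. Neural factors that act upstream of or beside Ebf genes led, with 7 of 8. Neurog1 and Neurog2, which induce neurons, and Atoh1 and Insm1 each had a best score of 3100, Zfp423, a zinc-finger partner of Ebf proteins, had 1030, and Neurod1 had 897. Zfp521, the paralogue of Zfp423, had none.

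In the list of fat cell genes 6 of 9 had a peak. Prdm16, which promotes brown fat, Ppargc1a, a coactivator of mitochondrial genes, and Cebpa scored 3100, and Pparg, the central adipocyte receptor, scored 1367. Cidea (403) and Ucp1, the uncoupling protein of brown fat (222), scored lower, and Adipoq, Cebpb and Fabp4 had no peak. Of the 12 early B cell genes 3 had a peak, namely the regulators Pax5 (3100), Ikzf1 (1271) and Foxo1 (786). The surface and signalling genes that Ebf1 activates, Cd79a, Cd79b, Vpreb1, Igll1 and Blk, had none, nor did Pou2af1, Spi1 and Tcf3.

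Of the 12 genes of gliogenesis and astrocytes 4 had a peak. The Notch target Hes5 scored 2175, the glutamate transporter gene Slc1a2 scored 480, Sox9, which acts with Nfia at the onset of gliogenesis, scored 377, and Hey1 scored 287. Gfap, Aqp4, S100b, Slc1a3, Aldh1l1, Apcdd1, Fabp7 and Mmd2 had none. Of the 6 olfactory signalling genes 1 (16.7%) had a peak, namely Gnal, the G protein of olfactory neurons (2885). Of the 6 other partners and targets of Nfi proteins 1 (16.7%) had a peak, namely Foxa1 (909). Ezh2, the catalytic subunit of PRC2, Myh7, Nfatc4, Ski and Sox6 had none. The share over all protein-coding genes was 13.1%.

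No reads are given with the peaks, so depth is unknown and weaker binding, under the threshold used by the authors, would not show at the genes named without one. Peaks of the members had a median width of 2312 bp and a median score of 1204, against 1849 bp and 572 for all peaks. The pluripotency genes Pou5f1, Nanog and Zfp42 had no peak.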

How the data were processed

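Bowtie and MACS were the authors' tools and GRCm38 (mm10) their genome build, per the submitters' processing notes. How the peak caller was run, with which control and whether on pooled reads, is not stated in these notes. The deposited list holds for each peak its position and a score made by the authors, whose scale is not stated in the file. The list holds no reads, so the depth is unknown.

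Peaks were placed on the outer ends of RefSeq genes of GRCm38.p6, all matched by symbol, with Python 3.11.15 and pandas 2.3.3. A peak within 2.5 kb of either outer end was an end peak, and any other peak over the body was interior. Starts, strands and sequences came from the RefSeq promoter table of that build, which is not complete. CG counts, base content and motifs were read from it by letters. The placement step was tested on simulated data. Shares describe 1 library, and neighbouring genes are not independent.

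The members and the lists of partner and target genes were chosen with earlier results of these data known. All 8 members are named, with any protein-coding gene sharing a peak with them, list genes with a peak and, as added names, list genes without one; a few genes in these counts are not reported here by name. Pax and Gata genes, neighbouring non-coding genes and genes with 6 or more peaks were chosen after their values were seen. The knockout library was not analysed here.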

Additional observations from a re-analysis of the deposited data

How the results depend on the processing

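Of 46 alternative values, 39 stayed within 1.5 times the reported value, 7 moved and 0 reversed. Peaks at a gene end numbered 5 instead of 10 when a peak had to cover the end. With peaks scoring at or above the median, 11 of 17 peaks and 4 of 7 interior peaks were left, Nfib and Ebf4 had no peak, and Nfia had 1876 bp covered instead of 3739. Joining peaks within 3 kb left 10 groups instead of 17 peaks. These changes follow from the construction of the settings. All 8 genes had a peak at 0, 1 and 5 kb and at double the lowest score. Interior peaks were 10 at 0 kb, 9 at 1 kb, 6 at 5 kb and 8 by midpoint. Without the peak shared with Lyl1, a setting chosen after seeing the data, Nfix had 18233 bp covered. No paired analysis was possible because 1 library has a peak list, so no replicate could be left out either. The depth is unknown, so what it limits cannot be stated.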

Other observations

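Beyond the limit of 2.5 kb, further Suz12 peaks stood near some of the genes. A peak of 3420 bp with a score of 1387, wider and higher in score than the one counted for Nfib, lay 29153 bp past the higher-coordinate end of Nfib, on chromosome 4 from 82535904 to 82539323. It lies inside Gm11266, a long non-coding RNA gene from 82507989 to 82547292 on the plus strand, whose listed start is 3011 bp from the peak counted for Nfib. A peak of 1720 bp with a score of 993 lay 20043 bp from Nfic. For Nfia, Nfix, Ebf2, Ebf3 and Ebf4 the next peak was at least 110543 bp away.

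Neighbouring peaks of the same gene often stood almost edge to edge. Of the 17 member peaks, 5 were followed by another within 200 bp, as were 113 of 3353 neighbouring pairs on the whole list, and a gap of at most 20 bp occurred at Nfia, Ebf1 and Ebf2 and 23 times in all. A count of peaks per gene therefore depends on where the authors' list splits signal.

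The factors' own binding letters were searched on both strands in the 300 bases around the 10 listed starts. The full Nfi palindrome, TTGGC and GCCAA with 5 bases of any kind between them, was at none of them and at 7 of all 21045 starts (0.0333%). The Ebf palindrome, TCCC and GGGA with 2 bases of any kind between them, was at none and at 203 of all starts (0.965%). The single Nfi arm TTGGC was found at starts of Ebf1, Ebf3 and Nfix, and in 48.2% of all promoters. The arm is part of the full palindrome. A match describes letters and not a bound site.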
